A study of Mus musculus with 24 samples.

Results

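The genes described here are 36 genes of fatty acid oxidation and ketogenesis, a list of symbols for the mitochondrial and peroxisomal β-oxidation enzymes, their carriers, and the nuclear receptor *Ppara*. They were read from the 23972 genes counted in mouse liver by RNA-Seq. The rule that lists them uses no measured value, but the members were chosen with earlier results of these data known. All 36 were found, and the lowest count of any member in any library was 109 reads, on *Pdk4*. The experiment was the arm of a gene therapy study in which lipodystrophic mice and their controls received FGF21, a hormone made mainly by the liver, alone. Liver was taken from female mice in 24 libraries, each from 1 animal. The genotype of LmnaADKO mice was *Lmna* fl/fl Adipoq-Cre+ and that of controls *Lmna* fl/fl Adipoq-Cre-, so all 4 groups carried loxP sites around exons 10 and 11 of *Lmna*, which encodes lamins A and C. Adipoq-Cre acts in adipocytes, so that *Lmna* is deleted in fat and not in hepatocytes. *Lmna* reads in whole liver therefore do not check the deletion, and were at 15.7 to 22.1 CPM (counts scaled to one library size) in control and 23.6 to 31.0 CPM in LmnaADKO livers with vehicle. Mice were 12 to 14 weeks old at the start and were housed at 22°C. They ate a 60% high-fat diet for 4 weeks before they received vehicle or an AAV8 vector by retro-orbital injection. The methods of the study name no other diet after that. Livers were collected 8 weeks after the injection. Vehicle was buffer without a vector, so FGF21 against vehicle also compares vector with no vector. There were 7 control and 6 LmnaADKO libraries with vehicle, and 3 control and 8 LmnaADKO libraries with FGF21. In the labels the AAV8 groups bear only the word rescue, and FGF21 is taken here from the methods of the study, although *Fgf21* reads did not set these groups apart. *Fgf21* was at 1.90 to 10.8 CPM in control libraries with vehicle and at 3.137, 3.795, and 7.395 CPM in those labelled as treated. In LmnaADKO libraries, *Fgf21* was at 4.63 to 10.6 CPM with vehicle and at 2.192 to 9.995 CPM with the treatment. Whether transcripts of the vector were counted under *Fgf21* was not tested. The paper reports that plasma FGF21 rose after transduction in this arm, disproportionately so in LmnaADKO mice. By that account exposure differed between genotypes, which bears on their comparison with FGF21 and on the interaction of genotype and treatment. Its part in the members' values was not tested. Animal numbers in the labels had 3 digits in 6 of 7 control and 1 of 6 LmnaADKO libraries with vehicle. They had 3 digits in 0 of 3 control and 4 of 8 LmnaADKO libraries with FGF21, and 4 digits otherwise. The number series thus partly overlaps with genotype and, within each genotype, with treatment.

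Fatty acids enter mitochondria as carnitine esters and are then shortened in a repeated cycle of oxidation, hydration, oxidation, and thiolysis, which yields acetyl-CoA. In the fasted liver, this acetyl-CoA is turned into ketone bodies for other tissues. Very long chains, branched chains such as phytanic acid, and the side chains of bile acid precursors are shortened in peroxisomes instead, by a separate set of enzymes. PPARA, a nuclear receptor that binds fatty acids, drives many genes of both organelles.

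Libraries held 19863304 to 21510054 reads on genes. Defining markers of hepatocytes were high in every group, with the sum of the 5 listed markers at 65560 CPM or more in every library. Markers of other cells moved in both directions in LmnaADKO livers with vehicle, by edgeR's quasi-likelihood test with Benjamini-Hochberg adjustment over all genes. Among cycling cell genes 4 of 4 rose, among stellate cell genes 3 of 6, and among cholangiocyte genes 1 of 5, *Spp1*, whereas 2 of 5 hepatocyte genes fell, *Serpina1a* and *Cps1*. In the macrophage and endothelial lists 1 gene each rose past both limits, *Gpnmb* and *Lyve1*, while the sums of these lists were lower, with medians of 413.9 and 362.7 CPM for macrophages and 219.8 and 202.0 CPM for endothelial cells in control and LmnaADKO livers. Of the 6 lymphocyte genes 0 were called, with log2 differences of -0.84 to -0.18, and of the 5 adipocyte genes 0 were called. Of all genes, 8.48% were called in this comparison, at an adjusted p under 0.05 and a fold change above 1.5. The sum of the stellate cell markers was 60.03 to 157 CPM in controls and 101.9 to 242 CPM in LmnaADKO livers with vehicle. The sum of the cholangiocyte markers was 27.0 to 51.2 CPM and 85.8 to 196 CPM in the same groups. The part of this shift in the members' values was not tested, and in bulk liver fewer cells of a type and less RNA per cell cannot be told apart. A set of 3 libraries stood apart in how levels ran with gene length, namely library 3 of the controls with vehicle, library 3 of the controls with FGF21, and library 7 of the LmnaADKO mice with FGF21.

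Few members differed between lipodystrophic and control liver, and most of those that did encode peroxisomal proteins. In livers with vehicle, 2 of 36 members were called, at an adjusted p under 0.05 and a fold change above 1.5, against 8.48% of all genes. Both rose, against 5.12% of all genes in that direction. They are *Scp2*, the thiolase and lipid carrier of the branched-chain path, and *Pex11a*, a protein of peroxisome division. With the adjusted p alone, 6 of 36 members passed, against 15.1% of all genes, of which 3 were higher, against 8.35%, and 3 were lower, against 6.76%. The further members were *Hsd17b4*, which was higher, and *Amacr*, *Phyh*, and *Etfb*, which were lower. Among the 6050 genes at or above the average level of the lowest member, 26.9% passed the adjusted p, so that 6 of 36, or 16.7%, was not above the background. The median log2 difference was -0.01 over the members and 0.003 over all genes, with 18 members higher and 18 lower. Of the 11 members placed in peroxisomal oxidation and transport, 5 passed the adjusted p, and of the 17 mitochondrial members of the straight-chain path 1 passed. Among members in neither count, *Crot*, *Decr2*, and *Eci2* also act in peroxisomes, and none of these passed. The share of peroxisomal members that passed therefore depends on how roles were assigned.

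**Figure D1:**
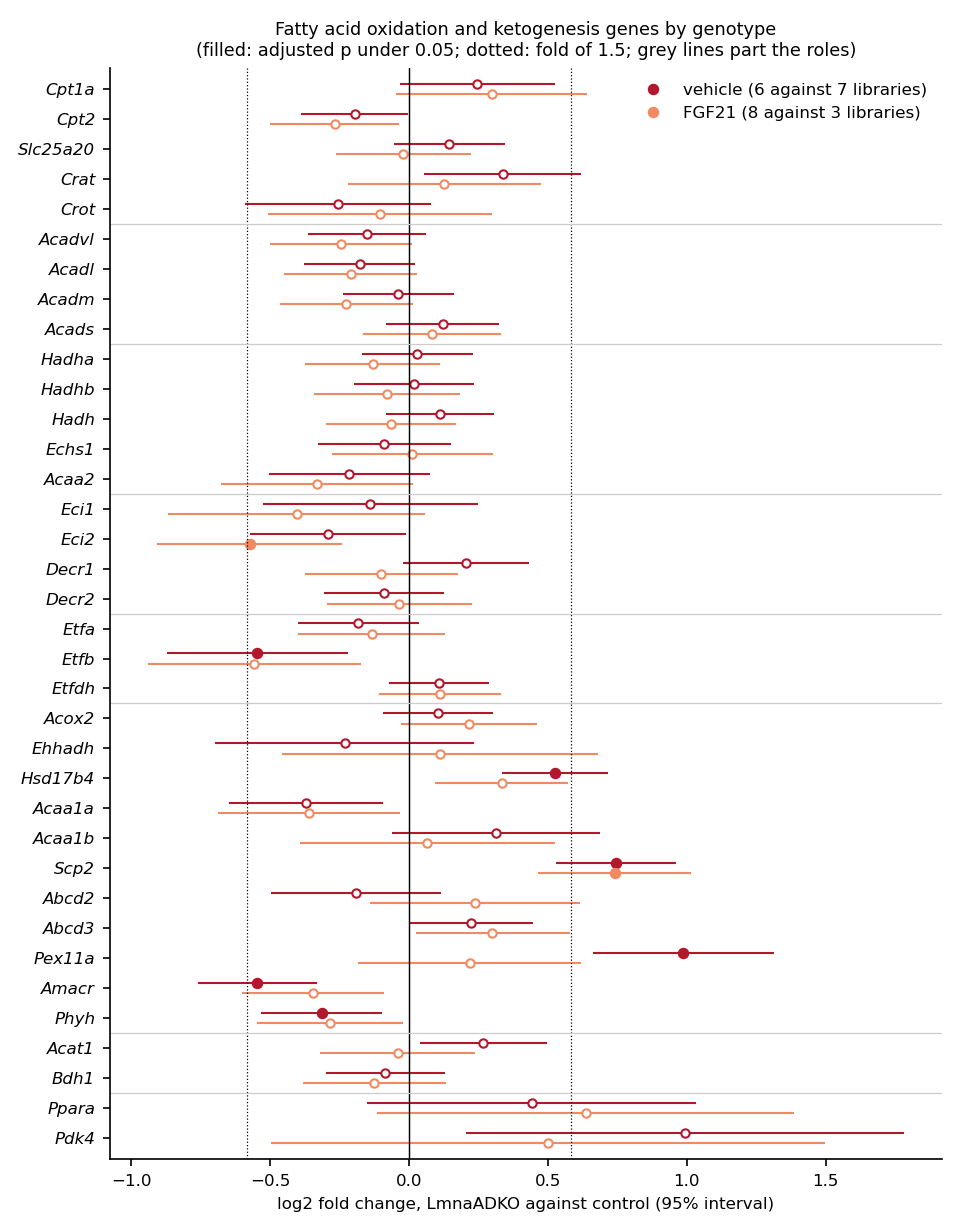
Log2 fold changes of LmnaADKO against control for the 36 members, with vehicle (dark red) and with FGF21 (orange), and their 95% intervals. Filled points passed an adjusted p of 0.05, dotted lines mark a fold of 1.5, and *Scp2* is the member past both limits in both treatments.

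Promoters of the 2 called members and of *Phyh*, a member of the same organelle that was lower, are shown as given by RefSeq on GRCm38.p6, from 250 bases before to 50 bases after the gene's start, read 5′ to 3′ on the gene's strand. Capitals mark AGGTCA, the hexamer that nuclear receptors such as PPARA with RXRA bind as a pair spaced by 1 base, or TGACCT, its other strand. *Scp2* lies at chr4:108118498-108118797, *Pex11a* at chr7:79743082-79743381, both on the minus strand, and *Phyh* at chr2:4918746-4919045 on the plus strand.
Scp2: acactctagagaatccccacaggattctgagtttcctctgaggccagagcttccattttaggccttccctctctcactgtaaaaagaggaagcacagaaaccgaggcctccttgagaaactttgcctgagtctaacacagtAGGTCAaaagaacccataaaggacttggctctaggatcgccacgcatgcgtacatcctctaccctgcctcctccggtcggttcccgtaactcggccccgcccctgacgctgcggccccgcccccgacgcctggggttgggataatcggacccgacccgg
Pex11a: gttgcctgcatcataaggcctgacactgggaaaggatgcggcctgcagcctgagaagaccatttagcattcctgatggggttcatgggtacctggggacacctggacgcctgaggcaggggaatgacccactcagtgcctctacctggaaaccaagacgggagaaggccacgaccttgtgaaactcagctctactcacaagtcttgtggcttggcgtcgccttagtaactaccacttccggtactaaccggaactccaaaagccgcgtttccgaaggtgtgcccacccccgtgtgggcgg
Phyh: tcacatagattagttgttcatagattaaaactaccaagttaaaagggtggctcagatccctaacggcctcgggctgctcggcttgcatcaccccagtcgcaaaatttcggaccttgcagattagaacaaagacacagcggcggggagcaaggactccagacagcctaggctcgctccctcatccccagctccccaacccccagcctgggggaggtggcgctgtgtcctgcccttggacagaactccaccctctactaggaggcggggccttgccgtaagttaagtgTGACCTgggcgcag
The hexamer occurred once in the *Scp2* promoter, starting at position -109, and once in that of *Phyh*, at position 36 on the other strand, with the first base of the gene as position 0. It was not in the *Pex11a* window. Promoters were found for 29 of 36 members, and the hexamer was in those of 6 members, *Acadm*, *Acadvl*, *Cpt1a*, *Echs1*, *Phyh*, and *Scp2*. Counted over promoters, that was 18.8% of 32 member promoters and 16.3% of all 32851. The direct repeat of AGGTCA spaced by 1 base, searched on both strands, was in 0 member promoters and in 0.0396% of all promoters. It is so rare in these windows that its absence from 32 promoters does not set the members apart. Variants of the repeat and sites outside the windows were not searched. The window of *Scp2* is 1 of its starts, since the gene is known to have more than 1 promoter and the RefSeq start lies within the longer gene of the annotation used for counting.

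*Scp2* (ENSMUSG00000028603, chr4:108043839-108144998, minus strand) encodes a peroxisomal thiolase, which takes the last step on branched chains and bile acid precursors, and from another promoter a shorter lipid carrier, and reads per gene do not tell these apart. *Scp2* was at 1918, 2416, and 2907 CPM (lowest, median, and highest) in control livers with vehicle and at 3832, 3941, and 4426 CPM in LmnaADKO livers. With FGF21, control libraries 1 to 3 were at 2078, 2348, and 2130 CPM in that order, here and for the genes that follow, and LmnaADKO livers at 3255, 3589, and 4221 CPM. Every LmnaADKO library lay above every control library within each treatment. The log2 difference was 0.74 ± 0.11 (SE, 6 against 7 libraries; edgeR, adjusted p = 1.5e-05) with vehicle and 0.74 ± 0.13 (8 against 3; adjusted p = 0.00194) with FGF21. The difference between these differences was 0.00, with a 95% interval of -0.34 to 0.34. With only the 4-digit animal numbers, the difference with FGF21 was 0.735 (adjusted p = 0.182; 4 against 3 libraries). Per length, *Scp2* was the third most abundant member in controls with vehicle, at 692 RPKM (CPM per kilobase of exons), and at 1159 RPKM in LmnaADKO livers. A pseudogene, *Scp2-ps2*, shares 21.8% of the 100-base stretches of *Scp2* transcripts. It was at 39.4 to 49.4 CPM in controls with vehicle and 48.7 to 60.2 CPM in LmnaADKO livers, a log2 difference of 0.24 ± 0.09 (edgeR, adjusted p = 0.0846).

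*Pex11a* (ENSMUSG00000030545), which elongates peroxisomal membranes before division, was at 74.2, 94.5, and 159.0 CPM in control livers with vehicle and at 159.1, 210, and 249 CPM in LmnaADKO livers. The groups did not overlap, although the highest control library, library 2, was level with the lowest LmnaADKO library. The log2 difference was 0.99 ± 0.16 (6 against 7 libraries; edgeR, adjusted p = 7.27e-05). In this comparison, 5 of 36 members did not overlap between groups, against 7.95% of all genes. With FGF21, *Pex11a* was at 113, 120, and 202 CPM in controls and at 134, 170, and 223 CPM in LmnaADKO livers, which overlapped. Its difference there was 0.22 ± 0.20 (8 against 3 libraries; edgeR, adjusted p = 0.601). The interaction of genotype and treatment was -0.77 ± 0.25 for *Pex11a*, which did not pass over all genes (edgeR, adjusted p = 0.981). The high control library with FGF21 is library 3, which stood apart with gene length, and without it the interaction was -0.45. *Pex11a* lies at chr7:79735957-79743131 on the minus strand, and 3054 bases part its end from *Plin1*, a lipid droplet coat gene on the same strand.

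Genes of branched-chain oxidation did not move together. *Slc27a2* activates the acids, *Abcd3* carries substrates into the peroxisome, *Phyh* hydroxylates phytanoyl-CoA, *Hacl1* removes 1 carbon, and *Amacr* turns the methyl group into the form the oxidase takes. *Acox2*, *Hsd17b4*, and *Scp2* then take the oxidation, hydration with dehydrogenation, and thiolysis. *Slc27a2* and *Hacl1* are not members but were in the list of further pathway genes, and the grouping into this path was made after the values were seen. Of these 8 genes, *Slc27a2*, *Phyh*, *Hacl1*, and *Amacr* passed the adjusted p and were lower in LmnaADKO livers with vehicle. *Hsd17b4* and *Scp2* passed and were higher, and *Abcd3* and *Acox2* did not pass. Of all genes 15.1% passed, and of the 6050 at or above the lowest member's average level 26.9% passed. Because the 8 genes were picked with their values known, their share that passed cannot be weighed against these.

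**Figure D2:**
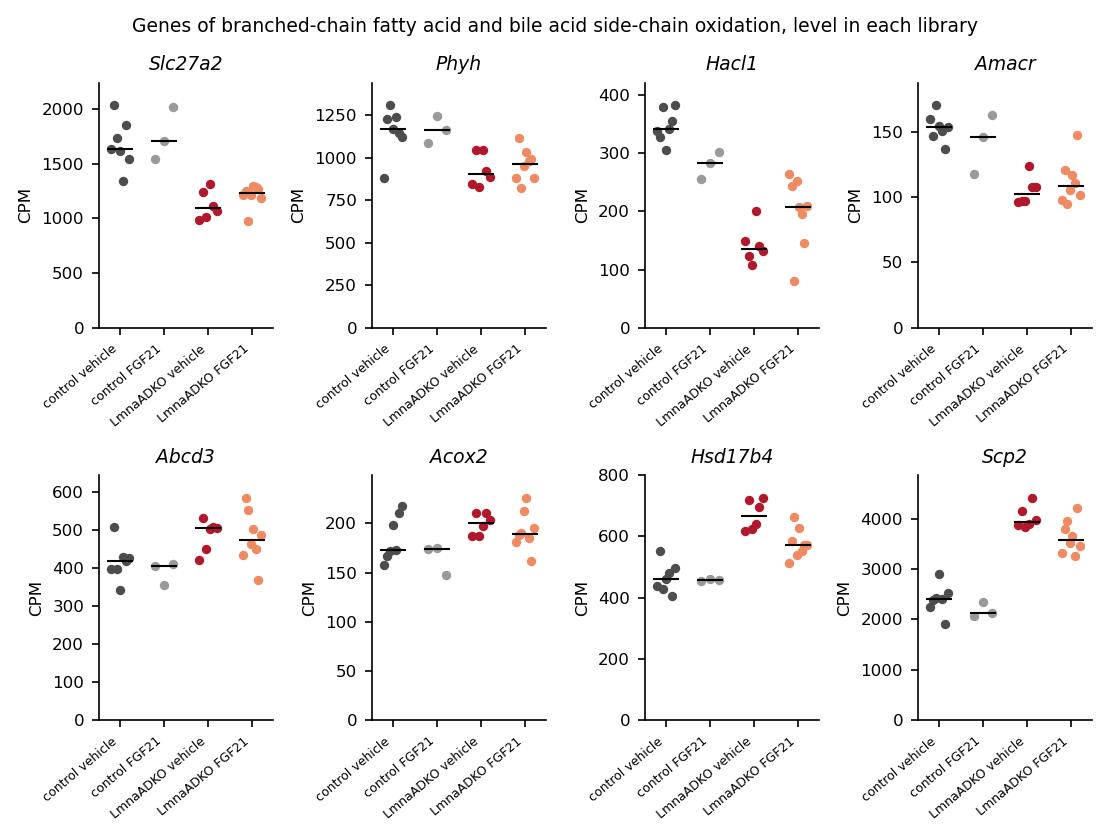
Levels in CPM of genes of branched-chain and bile acid side-chain oxidation in each library (points), with the median of each group (line). With vehicle, *Slc27a2*, *Hacl1*, and *Amacr* lay lower and *Hsd17b4* and *Scp2* higher in every LmnaADKO library than in any control library. *Phyh*, *Abcd3*, and *Acox2* overlapped. Of all genes, 7.95% did not overlap in this comparison, and the genes shown were grouped after their values were seen.

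*Phyh* (ENSMUSG00000026664, chr2:4919019-4938730) was at 882, 1172, and 1309 CPM in control livers with vehicle and at 826, 906, and 1047 CPM in LmnaADKO livers. Only library 1 of the controls fell in the LmnaADKO range. The log2 difference of -0.31 ± 0.11 lay near the threshold (edgeR, adjusted p = 0.0445) and passed in 8 of 20 alternatives. With FGF21, *Phyh* was at 1087, 1243, and 1166 CPM in controls and at 820, 964, and 1115 CPM in LmnaADKO livers, a difference of -0.28 ± 0.13 (edgeR, adjusted p = 0.247).

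*Amacr* (ENSMUSG00000022244, chr15:10981756-10996626), the racemase, was at 137, 154, and 170 CPM in control livers with vehicle and at 96.0, 102.3, and 124 CPM in LmnaADKO livers, with no overlap. Its log2 difference was -0.55 ± 0.105 (SE; edgeR, adjusted p = 0.000539), below the fold limit. With FGF21, the controls were at 118, 146, and 163 CPM and the LmnaADKO livers at 94.6, 108, and 148 CPM. The difference there was -0.35 ± 0.125 and did not pass (edgeR, adjusted p = 0.123), and library 7 of the LmnaADKO mice gave the highest value.

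With vehicle, *Hacl1* showed the largest decrease of these 8 genes, from 306, 341, and 382 CPM in control livers with vehicle to 107, 136, and 200 CPM in LmnaADKO livers. Its log2 difference was -1.29 ± 0.18 (edgeR, adjusted p = 1.74e-05). With FGF21, *Hacl1* was at 256, 283, and 303 CPM in controls and at 80.75 to 264.2 CPM in LmnaADKO livers, which overlapped, and the difference of -0.49 ± 0.21 did not pass (edgeR, adjusted p = 0.227). The interaction for *Hacl1* was 0.80 ± 0.29 and did not pass (edgeR, adjusted p = 0.984). *Slc27a2* was at 1338, 1632, and 2032 CPM in controls and at 985, 1092, and 1317 CPM in LmnaADKO livers with vehicle, a difference of -0.58 ± 0.11 (edgeR, adjusted p = 0.00064).

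*Hsd17b4*, the bifunctional enzyme of the branched-chain path, was at 407, 459, and 552 CPM in control livers with vehicle and at 619, 668, and 727 CPM in LmnaADKO livers. The groups did not overlap, and the log2 difference was 0.53 ± 0.09 (edgeR, adjusted p = 0.000248), just under the fold limit. With FGF21, *Hsd17b4* was at 456, 462, and 459 CPM in controls and at 514, 573, and 662 CPM in LmnaADKO livers, again without overlap. The difference of 0.33 ± 0.12 did not pass (edgeR, adjusted p = 0.111). Under FGF21, 2 of 36 members did not overlap between genotypes, *Hsd17b4* and *Scp2*, against 5.35% of all genes. *Abcd3* differed by 0.22 ± 0.11 and *Acox2* by 0.11 ± 0.10 with vehicle, and neither passed (edgeR, adjusted p = 0.188 and 0.507).

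The other peroxisomal members did not pass with vehicle in the fit of 4 groups. *Ehhadh*, the bifunctional enzyme for straight chains, was at 434, 461, and 1274 CPM in controls and at 486, 528, and 574 CPM in LmnaADKO livers. The value of 1274 CPM came from control library 2, and the LmnaADKO libraries lay within the control range. The log2 difference was -0.23 ± 0.23 (edgeR, adjusted p = 0.548), and without that library it was 0.05. With FGF21, *Ehhadh* was at 412, 522, and 327 CPM in controls and at 194, 473, and 600 CPM in LmnaADKO livers, which overlapped, and the difference was 0.11 ± 0.28 (edgeR, adjusted p = 0.884). *Acaa1a* and *Acaa1b* encode 2 near-identical peroxisomal thiolases, and 19.3% of the 100-base stretches of *Acaa1b* transcripts also occur in *Acaa1a*, so that reads could be split between them. *Acaa1a* differed by -0.37 ± 0.135 and *Acaa1b* by 0.31 ± 0.18 with vehicle (edgeR, adjusted p = 0.0619 and 0.282), and *Acaa1a* passed the adjusted p in 7 of 20 alternatives. *Acaa1b* was the most abundant member per length, at 882 RPKM in controls with vehicle. *Abcd2*, a transporter of very long chains, differed by -0.19 ± 0.15 (edgeR, adjusted p = 0.455).

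In the carnitine shuttle, 0 of 5 members passed with vehicle. *Cpt1a*, which makes the carnitine esters and sets the rate of entry into mitochondria, was at 389, 494, and 647 CPM in controls with vehicle and at 475, 596, and 732 CPM in LmnaADKO livers. The ranges overlapped, and the log2 difference was 0.25 ± 0.135, with a 95% interval of -0.03 to 0.52 (edgeR, adjusted p = 0.252). With FGF21, *Cpt1a* was at 523, 528, and 455 CPM in controls and at 452, 629, and 726 CPM in LmnaADKO livers. There 7 of 8 LmnaADKO libraries lay above all controls and library 7 lay below them, and the difference was 0.30 ± 0.17 (edgeR, adjusted p = 0.384). The other shuttle genes, *Cpt2*, *Slc25a20*, *Crat*, and *Crot*, differed by -0.26 to 0.34 with vehicle. *Crot*, the peroxisomal octanoyltransferase, was the member lower with FGF21 in both genotypes at an unadjusted p under 0.05, by -0.50 ± 0.21 in controls and -0.35 ± 0.16 in LmnaADKO mice, and neither passed adjustment (edgeR, adjusted p = 0.753 and 0.704).

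None of the 4 acyl-CoA dehydrogenases, the 5 enzymes of the later steps, or the 4 auxiliary enzymes for unsaturated acids passed with vehicle. *Acadm*, the medium-chain dehydrogenase, was at 430, 538, and 596 CPM in controls and at 446, 512, and 554 CPM in LmnaADKO livers, which lay within the control range. Its log2 difference was -0.04 ± 0.10, and the 95% interval of -0.24 to 0.16 lies inside a fold of 1.5 either way. With FGF21, *Acadm* was at 513.2, 568.2, and 580.0 CPM in controls and at 429, 464, and 548 CPM in LmnaADKO livers, a difference of -0.23 ± 0.12 (edgeR, adjusted p = 0.335). The subunits of the trifunctional protein, *Hadha* and *Hadhb*, differed by 0.03 ± 0.10 and 0.02 ± 0.11 with vehicle. *Acadvl*, *Acadl*, and *Acads* ran from -0.18 to 0.12, *Hadh*, *Echs1*, and *Acaa2* from -0.21 to 0.11, and *Eci1*, *Decr1*, and *Decr2* from -0.14 to 0.21.

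*Eci2*, a Δ3,Δ2-enoyl-CoA isomerase for unsaturated acids, was the member that passed only the adjusted p in FGF21-treated livers. *Eci2* was at 240, 266, and 366 CPM in control livers with vehicle and at 194, 245, and 275 CPM in LmnaADKO livers. With FGF21, control libraries 1 and 2 were at 297.4 and 431.8 CPM, with library 3 higher still, and LmnaADKO livers at 218, 260, and 346 CPM, and 6 of 8 LmnaADKO libraries lay below all controls. The log2 difference was -0.29 ± 0.14 with vehicle (edgeR, adjusted p = 0.168) and -0.57 ± 0.16 with FGF21 (adjusted p = 0.0422). Without control library 3 the latter was -0.42 (adjusted p = 0.308). Under FGF21, 1 of 36 members was called, *Scp2*, against 2.88% of all genes, and 2 of 36 passed the adjusted p alone, against 3.85%. *Eci3*, a paralog of *Eci2* and a pathway gene that is not a member, was listed at 0.328 to 3.25 CPM in controls with vehicle and 0.0463 to 0.214 CPM in LmnaADKO livers, with a log2 difference of -4.00 ± 0.44 (edgeR, adjusted p = 3.27e-07). A count of 3 is 0.125 to 0.146 CPM in the LmnaADKO libraries, so that the size of this fold depends on the prior count.

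*Etfb* (ENSMUSG00000004610, chr7:43444083-43457800) is a subunit of the electron transfer flavoprotein, which takes electrons from the dehydrogenases to the respiratory chain. It was at 372, 431, and 553 CPM in controls with vehicle and at 271, 310, and 335 CPM in LmnaADKO livers, with no overlap, and was the only straight-chain mitochondrial member to pass. The log2 difference was -0.55 ± 0.16 (edgeR, adjusted p = 0.0185), and without control library 3 it was -0.485 (adjusted p = 0.0527). The other subunit, *Etfa*, and the dehydrogenase *Etfdh* differed by -0.18 ± 0.11 and 0.11 ± 0.09. With FGF21, *Etfb* was at 374, 520, and 759 CPM in controls and at 257, 354, and 604 CPM in LmnaADKO livers. The highest library of each group was one that stood apart with gene length, and the difference was -0.56 ± 0.19 (edgeR, adjusted p = 0.0939). *Etfb* is 1 of the 5 members with less than 2000 exonic bases, the others being *Etfa*, *Acaa2*, *Acaa1b*, and *Phyh*.

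**Figure D3:**
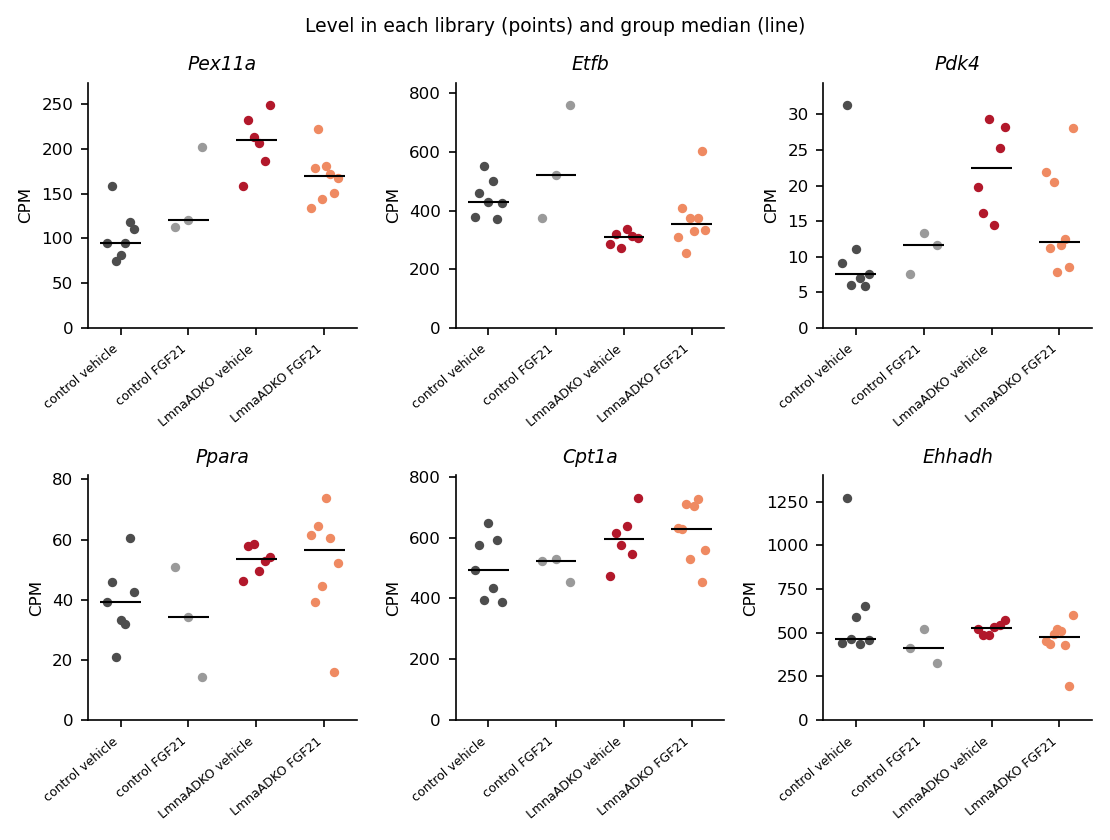
Levels in CPM of 6 members in each library (points), with the group median (line). *Pex11a* and *Etfb* part LmnaADKO from control libraries with vehicle, whereas *Pdk4*, *Ppara*, *Cpt1a*, and *Ehhadh* overlap, and 1 control library with vehicle, library 2, is high for *Pdk4*, at 31.3 CPM, and for *Ehhadh*, at 1274 CPM.

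Neither ketone body member passed in any comparison of the fit of 4 groups. *Bdh1*, which interconverts acetoacetate and 3-hydroxybutyrate, was at 384, 441, and 598 CPM in controls with vehicle and at 394, 429, and 467 CPM in LmnaADKO livers. All LmnaADKO libraries lay within the control range, and the log2 difference was -0.09 ± 0.105, with a 95% interval of -0.30 to 0.13. With FGF21, *Bdh1* was at 365, 467, and 440 CPM in controls and at 345, 378, and 446 CPM in LmnaADKO livers. *Acat1*, the mitochondrial acetoacetyl-CoA thiolase, differed by 0.27 ± 0.11 with vehicle (edgeR, adjusted p = 0.114), and passed the adjusted p under DESeq2, with the length slope as a covariate, and without the 3 libraries that stood apart.

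*Ppara* was at 20.8, 39.2, and 60.6 CPM in controls with vehicle and at 46.1, 53.5, and 58.4 CPM in LmnaADKO livers. The LmnaADKO libraries were all above the control median but within the control range, and the log2 difference of 0.44 ± 0.29 did not pass (edgeR, adjusted p = 0.342). With FGF21, *Ppara* was at 51.0, 34.3, and 14.2 CPM in controls and at 15.9, 56.5, and 74.0 CPM in LmnaADKO livers, a difference of 0.64 ± 0.36 (edgeR, adjusted p = 0.398). The lowest library of each of these groups was one that stood apart with gene length. With the length slope as a covariate, the difference with vehicle was 0.50 and passed (edgeR, adjusted p = 0.000179).

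*Pdk4* (ENSMUSG00000019577, chr6:5483351-5496309), a kinase that turns off pyruvate dehydrogenase and so spares glucose while fat is burned, was at 5.83, 7.60, and 31.3 CPM in controls with vehicle and at 14.5, 22.5, and 29.3 CPM in LmnaADKO livers. Apart from control library 2, every control library lay below every LmnaADKO library. The log2 difference was 0.99 ± 0.38 and did not pass (edgeR, adjusted p = 0.0854). Without control library 2 it was 1.51 (adjusted p = 0.00115). With FGF21, *Pdk4* was at 7.56, 13.3, and 11.6 CPM in controls and at 7.79, 12.1, and 28.0 CPM in LmnaADKO livers, a difference of 0.50 ± 0.48 (edgeR, adjusted p = 0.635).

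Control library 2 with vehicle carried high levels of many members at once. It was the highest of the 7 libraries for 21 of 36 members and the lowest for 0. *Ehhadh* was at 2.77 times and *Pdk4* at 4.28 times the median of the other 6 libraries, whereas *Scp2* was at 0.989 times and *Amacr* at 0.949 times. Of the 15 other targets of PPARA listed, 10 were also highest in this library, among them *Cyp4a14*, a fatty acid ω-hydroxylase, at 2952 CPM against 1272 to 1792 CPM in the other libraries. Its length slope was 0.04, within the range of most libraries. The adipocyte markers *Adipoq* and *Cfd* were also highest there, at 0.61 and 1.92 CPM against at most 0.05 and 0.29 CPM, and *Lep* had no reads in this group. Single libraries of other groups were extreme too. LmnaADKO vehicle library 1 was lowest for 19 of 36 members, and control FGF21 library 1 for 28 of 36. The share of all genes highest in control library 2 was not computed, and the cause was not tested.

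**Figure D4:**
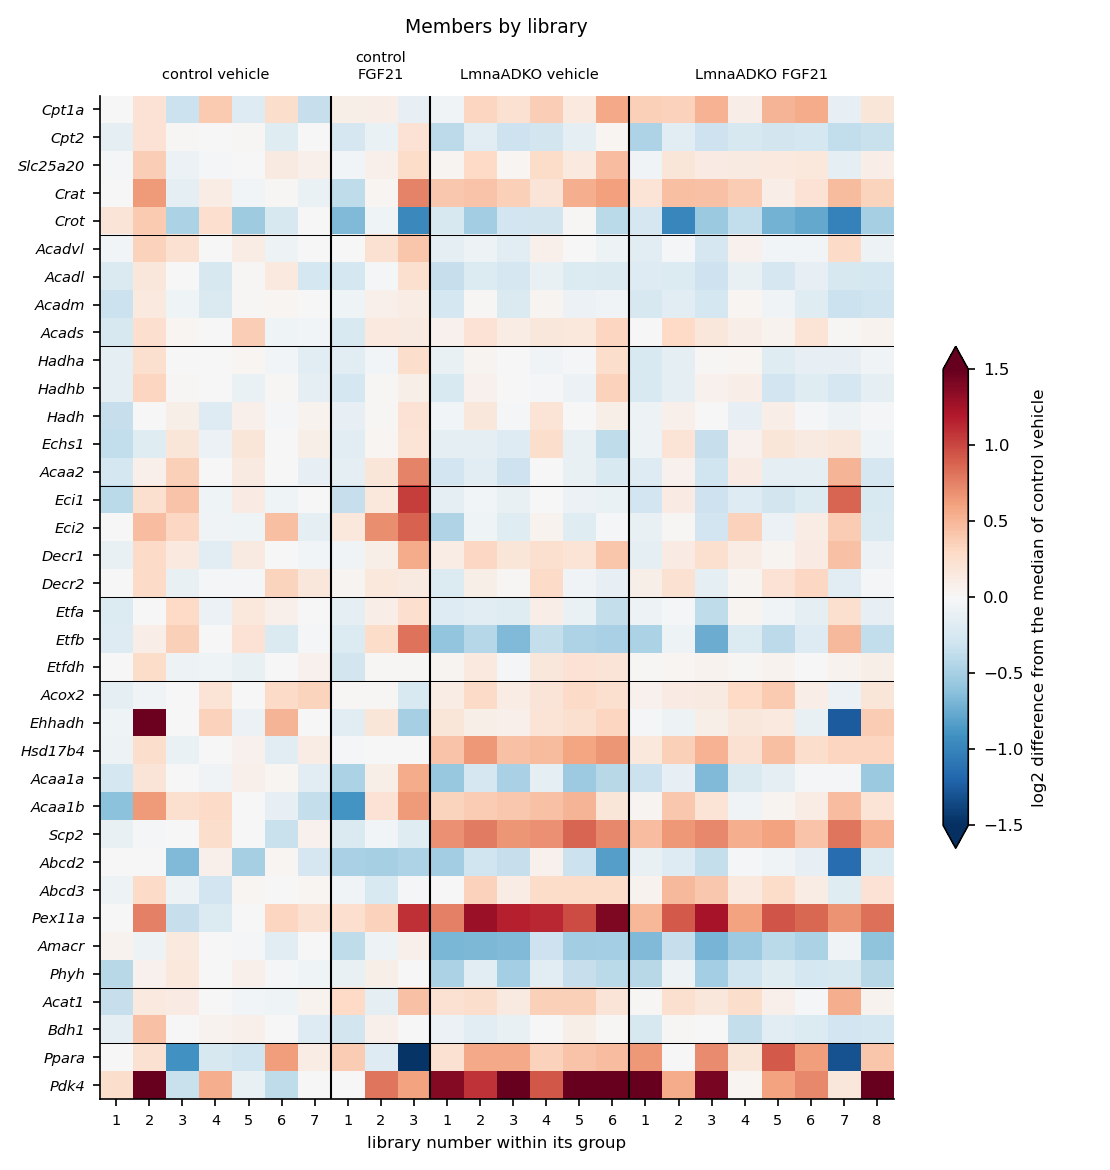
Log2 difference of each member in each library from the median of the controls with vehicle, capped at ±1.5, with members ordered by role and libraries by group. *Scp2*, *Pex11a*, and *Hsd17b4* are higher and *Amacr* lower in all 6 LmnaADKO columns with vehicle than in any control column with vehicle, and single columns stand out for control vehicle library 2 and LmnaADKO FGF21 library 7.

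No member passed the test for FGF21 against vehicle. In controls, 0 of 36 were called by edgeR, against 0.0542% of all genes, and 3 had an unadjusted p under 0.05, against 6.16% of all genes. In LmnaADKO mice, 0 of 36 were called, against 0% of all genes, and 2 had an unadjusted p under 0.05, against 6.71%. The interaction called 0 of 36, against 0.00417%, with 1 member, *Pex11a*, at an unadjusted p under 0.05, against 4.86%. DESeq2 called 0 members in each of the 3 comparisons as well. Over all 23972 genes it called 38 in controls, 15 in LmnaADKO mice, and 13 for the interaction. The member with the smallest adjusted p in controls was *Eci2*, at 0.45 ± 0.17 (edgeR, adjusted p = 0.639), and in LmnaADKO mice it was shared by several, among them *Hsd17b4*, at -0.21 ± 0.09 (adjusted p = 0.704). In controls, treatment and animal number series partly overlap. With that series as a covariate, calls over all genes for FGF21 in controls went from 13 to 0. With 3 control libraries, the intervals were wide. For *Cpt1a* the interval of the FGF21 difference in controls ran from -0.35 to 0.34 and in LmnaADKO mice from -0.22 to 0.32, so that a fold of 1.5 was outside both.

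Gene length moved with some of these values. The slope on log2 exonic length was taken from log2 CPM less each gene's median over all libraries of the same genotype. Centred in this way, it can neither show nor, as a covariate, remove a length effect that differs between genotypes. The slope was -0.33 in LmnaADKO FGF21 library 7, -0.29 in control FGF21 library 3, and -0.15 in control vehicle library 3. It lay between -0.11 and 0.13 in the others. In the same 3 libraries, the median log2 difference of the 5 short members from the control vehicle median was 0.46, 0.64, and 0.29, and that of the 13 members with 4000 or more bases was -0.12, 0.21, and -0.07. Without these libraries, *Scp2* and *Pex11a* were still called with vehicle and *Scp2* with FGF21.

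**Figure D5:**
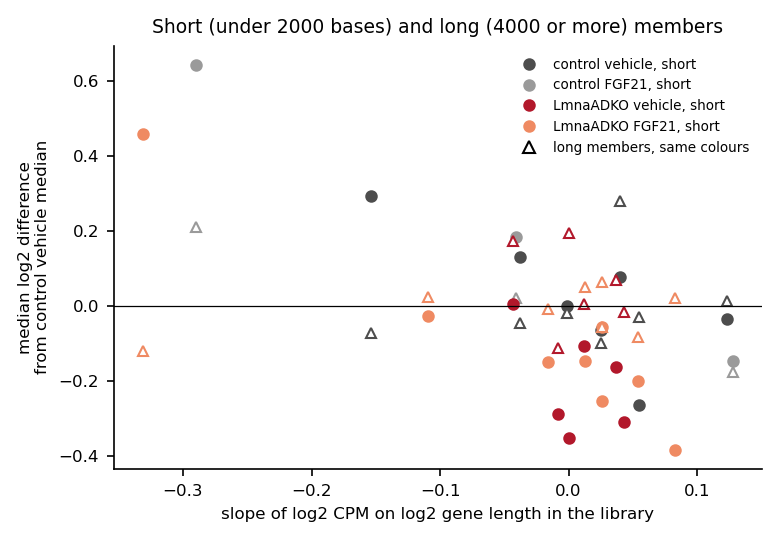
Median log2 difference of short and long members from the control vehicle median in each library, against the slope on log2 gene length. Filled circles are short members (under 2000 exonic bases) and open triangles are long members (4000 or more). The slope was taken from log2 CPM less each gene's median over all libraries of the same genotype. The 3 libraries with the lowest slopes hold the 3 highest values of the short members.

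Beyond the members, the listed genes of the pathway moved in both directions with vehicle. Of 25 further oxidation and ketogenesis genes, 3 rose and 3 fell past both limits, against 8.48% of all genes in either direction. *Cpt1b*, the muscle form of the carnitine transferase, rose from 1.22 to 4.17 CPM in controls to 4.26 to 10.6 CPM (log2 difference 1.48 ± 0.22; edgeR, adjusted p = 3.13e-05), and *Slc25a17*, a peroxisomal cofactor carrier, rose by 0.61 ± 0.08 (adjusted p = 4.28e-06). *Acacb*, which makes the malonyl-CoA that blocks *Cpt1a*, was the third and rose by 1.01 ± 0.27. The 3 that fell were *Eci3*, *Hacl1*, and *Slc22a5*, the plasma membrane carnitine transporter, at -0.62 ± 0.135. With FGF21, *Cpt1b*, *Eci3*, and *Slc22a5* were called in the same directions, at 1.38 ± 0.29, -3.05 ± 0.45, and -1.0045 ± 0.155 (edgeR, adjusted p = 0.00604, 0.000147, and 0.000265).

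Of 13 regulators and cofactors of PPARA, 0 were called with vehicle, against 8.48% of all genes. By the adjusted p alone 4 passed, against 15.1% of all genes and 26.9% of the 6050 at or above the lowest member's average level. All 4 were lower, namely *Rxra*, the partner of PPARA, at -0.36 ± 0.11, *Creb3l3*, *Med1*, and *Tfeb*. Of 15 other targets of PPARA, 2 fell past both limits and none rose, against 8.48% of all genes in either direction. They were *Cyp4a10*, a fatty acid ω-hydroxylase, at -1.04 ± 0.21 (edgeR, adjusted p = 0.000939), and *Acot3*, a peroxisomal thioesterase, at -1.63 ± 0.43 (adjusted p = 0.0128). Of 15 other peroxisome biogenesis genes, 2 fell past both limits, again against 8.48% of all genes in either direction. They were *Pex6* at -0.61 ± 0.11 and *Pex26* at -0.69 ± 0.16, which together recycle the peroxisomal import receptor. *Pex3*, which takes part in forming the peroxisomal membrane, was higher by 0.24 ± 0.08 and passed the adjusted p alone (edgeR, adjusted p = 0.0361). With FGF21, 3 of 25, 0 of 13, 2 of 15, and 0 of 15 genes of these lists were called between genotypes, against 2.88% of all genes. None of the genes in these 4 lists was called for FGF21 against vehicle in either genotype, against 0.0542% of all genes in controls and 0% in LmnaADKO mice.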

How the data were processed

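RNA-Seq of polyA-selected, strand-marked libraries was made from 24 mouse livers. The authors deposited 1 table of gene counts, whole numbers per gene and library. The submitters' processing notes name cutadapt 4.8, FastQC 0.11.8, STAR 2.7.8a, RSEM 1.3.3, and GRCm38. RSEM gives estimated counts, so the deposited counts may have been rounded, and reads shared by near-identical genes are divided by a model.

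Groups came from the labels. The 23972 genes were fitted in 1 model of 4 groups with edgeR 4.0.16 (TMM scaling, robust quasi-likelihood test) in R 4.3.3, with Benjamini-Hochberg adjustment over all genes. A gene was called at an adjusted p under 0.05 and a fold change above 1.5. SE is the log2 fold change over the root of F. The fit was checked on simulated data. CPM uses TMM-scaled totals. Libraries held 19863304 to 21510054 reads, and chi-square per degree of freedom was 14.1 to 196 over 67 replicate pairs, so none was a duplicate. Nothing in the labels gives litters, so p-values measure the spread between these animals.

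The members and lists were chosen with earlier results of these data known. Full values were given for members past the test, for *Cpt1a*, *Ppara*, *Pdk4*, *Bdh1*, *Acadm*, and *Ehhadh*, and for the member with the smallest adjusted p where none was called. At most 5 called genes were named per pathway list, and *Acacb*, *Slc27a2*, *Cyp4a14*, and the listed genes that passed only the adjusted p were named after their values were seen. Some listed genes are not reported here. Alternatives were DESeq2 1.42.0, its size factors in edgeR, filterByExpr, adjusted p alone, only the groups compared, animal number series or length slope as a covariate, leaving out each library or the 3 that stood apart, and, chosen after seeing the data, only the 4-digit animal numbers.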

Additional observations from a re-analysis of the deposited data

Results flagged for a closer look

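In groups of 4 to 8 libraries, 14 of 108 combinations of member and group had 1 library far from the others, by Dixon's test of the gap to the nearest library. Chance gives such a gap in about 1 in 20 groups. These values fell in 3 libraries.

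Control library 2 with vehicle was high for 7 members. *Ehhadh* was at 1274 CPM there and at 434.1 to 654.8 CPM in the other 6 libraries. *Pdk4* was at 31.3 CPM against 5.835 to 11.05 CPM. *Crat*, the carnitine acetyltransferase, was at 163.2 CPM against 94.97 to 113.8 CPM. *Slc25a20*, the carnitine carrier, was at 204.6 CPM, *Hadhb* at 379.3 CPM, *Etfdh* at 423.0 CPM, and *Bdh1* at 597.9 CPM, each the highest of the group.

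LmnaADKO library 7 with FGF21, which also had the steepest length slope, was high for 4 members and low for 2. *Eci1* was at 330.5 CPM there and at 145.3 to 196 CPM in the other 7 libraries. *Acaa2* was at 1597 CPM, *Etfb* at 603.7 CPM, and *Acat1* at 809.5 CPM, each the highest of the group. *Ehhadh* was at 193.7 CPM against 428.6 to 599.9 CPM, and *Abcd2* at 31.96 CPM against 55.2 to 69.89 CPM. In LmnaADKO library 4 with vehicle, *Echs1* was at 324.6 CPM against 207 to 248.9 CPM. The cause was not tested in any of these.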

How the results depend on the processing

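Of 423 recomputed values of named members, 386 kept their direction and side of the threshold, 26 lost the threshold, 9 gained it, and 2 reversed. With vehicle, *Scp2* and *Pex11a* were called under every alternative run, at 0.70 to 0.80 and 0.91 to 1.12. The count of called members with vehicle was 2 to 3 when 1 library was left out, 6 with the adjusted p alone, and 4 with the animal number series as a covariate, which added *Amacr* and *Etfb*. Under FGF21, the count was 2 with the adjusted p alone, 2 with DESeq2, 2 with DESeq2 size factors in edgeR, 0 with only the 4-digit animal numbers, and 1 to 4 when 1 library was left out. It was 4 without LmnaADKO library 7, 3 without control library 1, and 2 without LmnaADKO library 4. Calls over all genes moved as well, from 690 to 1149, 742, and 715 in these settings. They went to 148 with only the 4-digit animal numbers, 1022 with DESeq2, and 694 with its size factors in edgeR. With vehicle they went from 2033 to 1604 with the number series as a covariate. By the adjusted p alone, 9 members passed with vehicle under DESeq2 and 10 with the length slope as a covariate. Without the 3 libraries that stood apart 8 passed, and *Acaa1a* and *Acat1* passed in each of these. Genes called past both limits numbered 2152, 2363, and 2017 in these 3 settings. The share of all genes passing the adjusted p alone was not computed for them. *Ehhadh* with vehicle went to 0.052 without control library 2 (-0.301 to 0.052 when 1 library was left out), and *Eci1* under FGF21 went from -0.40 to 0.06 without control library 3 (-0.669 to 0.06 when 1 library was left out); the cause was not tested. *Pdk4* with vehicle passed in 3 of 20 alternatives (DESeq2, filterByExpr, and without control library 2). *Phyh* with vehicle passed in 8 of 20, and *Eci2* under FGF21 in 7 of 19. FGF21 against vehicle and the interaction called 0 members in every alternative. No paired analysis was possible because the labels give each animal its own number and the groups share none. With 3 treated controls, small effects of FGF21 could not be detected at this spread.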
